A study of Mus musculus with 66 samples.

Results

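The enzymes of the citrate cycle and of the steps that join it to pyruvate, malate, citrate and glutamine were followed at the mRNA level in mouse small intestinal organoids, and the chromatin at their start sites was read beside it. The set was given by name, as 37 gene symbols with no threshold on any value, of which 36 had a row in the RNA table, as 39 transcripts of 9481. The symbol Cs, citrate synthase, was not analysed here. The 36 genes fall into 8 roles, namely the pyruvate dehydrogenase complex, its kinases, the steps from citrate to oxoglutarate, from oxoglutarate to succinate and from succinate to oxaloacetate, the malic enzymes with citrate lyase, the glutamate and glutamine enzymes, and the transaminases.

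All organoids carried the Lgr5 GFPDTR/+ allele, a reporter and toxin receptor placed in the gene of the intestinal stem cell marker Lgr5. ENR, the reference culture, held epidermal growth factor, Noggin and R-Spondin-1 in a base medium common to all cultures (B27, n-acetyl cysteine, Glutamax, HEPES and antibiotics). CV, which the paper names the stem cell-enriched culture, was ENR with 3 µM CHIR99021 and 1 mM valproic acid for 5 days. EN, the stem cell-depleted culture, was ENR without R-Spondin-1 for 2.5 days. CHIR99021 inhibits GSK3 and so activates Wnt signalling, and valproic acid inhibits histone deacetylases. EN and CV therefore differed in both added agents, in R-Spondin-1 and in days of culture, which cannot be told apart. Each culture had 4 RNA-seq and 4 ATAC-seq libraries, and 1 ChIPmentation library of the transcription factor Hnf4g. Of the 4 ChIPmentation libraries that the labels list for each of H3K27ac, H3K4me3 and H3K27me3 (5 for H3K27ac in CV), 3 were analysed here. Whether libraries of 1 culture came from separate animals or wells is not given in the labels, so the p-values measure the spread between these libraries, which may be technical.

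Pyruvate enters the mitochondrial cycle through the pyruvate dehydrogenase complex, which kinases of the Pdk family phosphorylate and switch off. Citrate is then isomerised and oxidised to oxoglutarate, and on through succinate, fumarate and malate to oxaloacetate, while several steps have a cytosolic counterpart that yields NADPH or shuttles reducing equivalents. Glutamine and glutamate feed the cycle at oxoglutarate through glutamate dehydrogenase and the transaminases, and absorptive enterocytes are known for burning glutamine as a main fuel and for releasing alanine.

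RNA libraries held 5630951 to 8859744 counts on transcripts. CPM (counts-per-million) were taken on the TMM-scaled library size. The cultures differed in their cells: the summed level of the 5 stem cell markers was 457 to 517 CPM in CV, 1710 to 1850 CPM in ENR and 36 to 40.1 CPM in EN. Most of the gap between ENR and CV lay in Olfm4, at 1140 to 1270 CPM in ENR and 7.14 to 20.5 CPM in CV, beside 124 to 136 and 85.2 to 94.0 CPM for Lgr5. In EN, Olfm4 was at 0.428 to 0.804 CPM and Lgr5 at 0.642 to 2.28 CPM. Both proliferation genes, Mki67 and Top2a, together gave 21.6 to 28.5 CPM in EN against 629 to 660 CPM in CV and 974 to 1020 CPM in ENR. All 6 enterocyte markers were higher in EN than in CV, with sums of 14700 to 17500 CPM against 4510 to 4840 CPM, and 2940 to 3340 CPM in ENR. The stem cell and proliferation sums were thus lower, and the enterocyte sum higher, in CV than in ENR. The enterocyte list itself was split, and Fabp1 (means of 3190 CPM in CV and 1460 CPM in ENR) weighed most in its sum. Fabp1 (log2 1.13), Krt20 (0.70) and Vil1 (0.25) were higher in CV than in ENR. Apoa1 (-2.33) and Anpep (-0.31) were lower, and Alpi (-0.14) did not pass. The 3 goblet cell markers rose too, from 553 to 642 CPM in CV to 7080 to 7910 CPM in EN, with 1250 to 1380 CPM in ENR. Paneth cell markers summed to 2330 to 2610 CPM in CV, 3010 to 3160 CPM in ENR and 1060 to 1270 CPM in EN, with 1 of 3 higher and 2 lower in EN than in CV. The 2 enteroendocrine markers summed to 8.76 to 11.6 CPM in CV, 296 to 303 CPM in ENR and 616 to 1100 CPM in EN. The tuft cell marker Dclk1 was at 0.133 to 0.663 CPM in CV, 10.0 to 11.8 CPM in ENR and 30.7 to 43.8 CPM in EN. Pan-epithelial markers summed to 5270 to 5400 CPM in CV, 5800 to 5930 CPM in ENR and 4350 to 4960 CPM in EN. The 4 non-epithelial markers found, of 6 listed, summed to 5.42 to 7.68 CPM in CV, 8.3 to 9.82 CPM in ENR and 23.5 to 29.4 CPM in EN. These marker sums move with every EN difference given here, and their part in it was not tested. In bulk libraries, fewer cells of a type and less RNA per cell cannot be told apart.

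Between EN and CV, the enzymes changed in both directions. Of the 39 transcripts, 18 were higher in EN, 16 were lower and 5 did not pass the test (edgeR's quasi-likelihood test, adjusted p under 0.01 over all 9288 transcripts tested). The values of the 4 EN and 4 CV libraries did not overlap for 32 of them, beside 76.5% of all transcripts. So wide a change was common: 76.4% of all transcripts passed, 35.2% higher and 41.2% lower. At least 2-fold, 9 members were higher and 6 lower, beside 35.4% of all transcripts, 15.2% higher and 20.1% lower. The median log2 fold change of the members was -0.06, that of all transcripts -0.08.

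Against ENR, more members were higher than lower in EN, except with spike-in scaling. In all, 21 transcripts were higher, 11 lower and 7 did not pass, with 31 not overlapping (74.2% of all transcripts), beside 72.7% of all transcripts called, 35.5% higher and 37.2% lower. At least 2-fold, 10 were higher and 3 lower, where 30.1% of all transcripts were called, 13.1% higher and 17.0% lower. The members' median was 0.52 and that of all transcripts -0.01. Between CV and ENR, 19 members were higher in CV, 9 lower and 11 not called, with 30 not overlapping (65.7% of all transcripts), beside 60.0% of all transcripts called, 30.2% higher and 29.8% lower. Only 4 were higher and 1 lower by at least 2-fold in that comparison, beside 12.9% of all transcripts, 6.74% higher and 6.17% lower, and the median was 0.07 against -0.01. Each culture enters a pair of these comparisons, so they share libraries and are given side by side only.

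**Figure D1:**
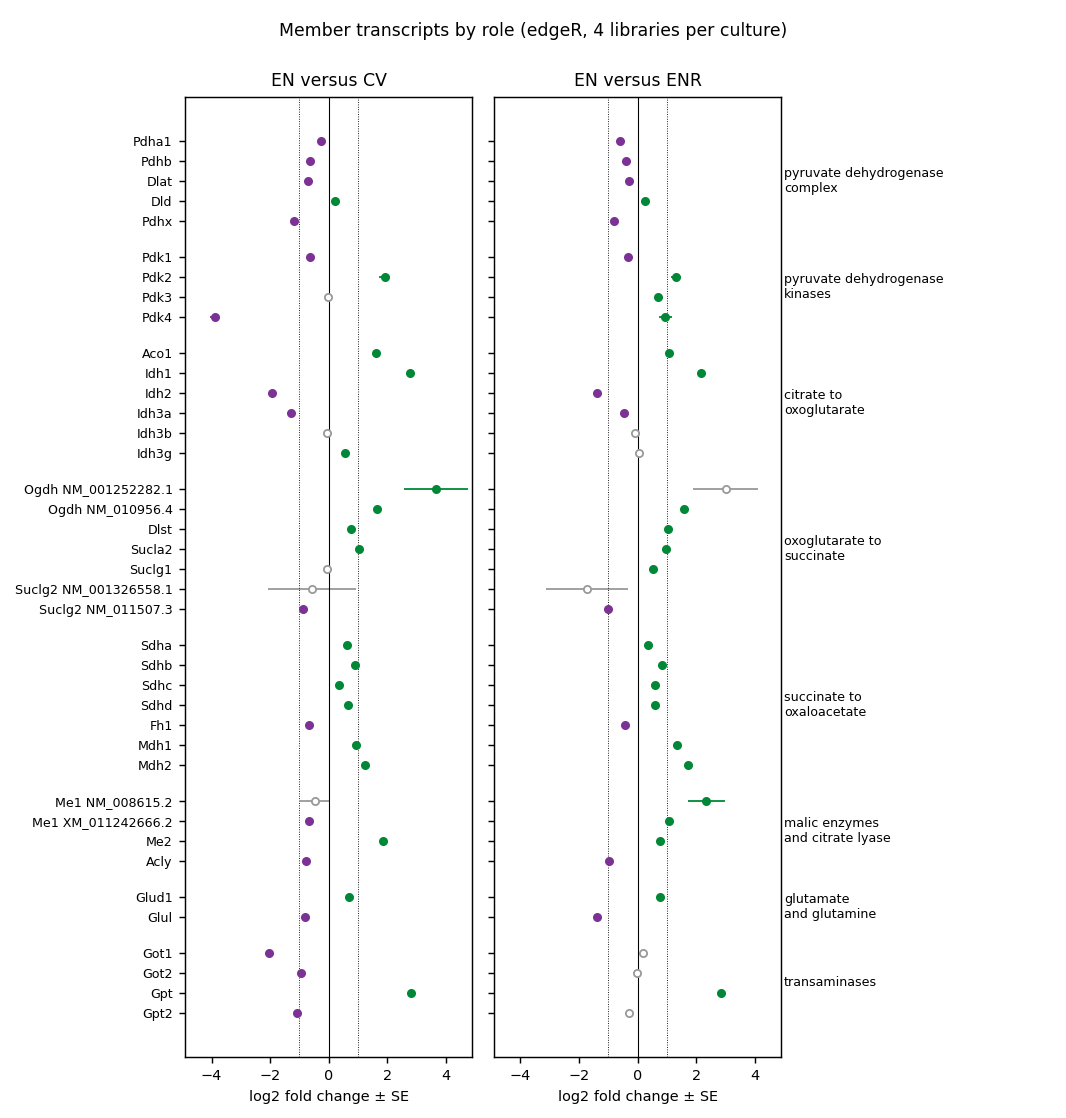
The x axes show the log2 fold change ± SE of each of the 39 transcripts in EN relative to CV (left) and to ENR (right), grouped by role, with 4 libraries per culture. Green points were higher in EN, purple points lower, open grey points did not pass, and dotted lines mark a 2-fold change. Idh1 and Gpt lie furthest right among transcripts with small errors (2.76 and 2.81 against CV), and Pdk4 lies furthest left against CV at -3.89.

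The direction of the smaller changes depended on how libraries were scaled. Scaled to the spike-ins, the median of all transcripts moved to -0.49 for EN against CV and -0.52 for EN against ENR, and the members split 11 higher and 16 lower (median -0.47) and 10 higher and 14 lower (median -0.01). On the copy numbers, which the authors had scaled to spike-ins, the medians of all transcripts were 0.62 and 0.88, and the members split 20 higher to 3 lower (median 0.80) and 27 to 0 (median 1.36). On TPM the splits were 15 to 19 (median -0.32 against -0.34 for all) and 18 to 14 (0.35 against -0.14). For CV against ENR the members split 8 to 5 on spike-ins, 8 to 1 on copies and 20 to 6 on TPM. The changes of at least 2-fold split differently too: EN against CV gave 7 higher and 15 lower on spike-ins, 6 and 10 on TPM and 18 and 3 on copies, and EN against ENR gave 6 and 6, 5 and 4, and 23 and 0. Relative to all transcripts, the members' median was higher by every scaling in EN against ENR. No change of at least 2-fold turned its direction under any of these scalings, and each smaller change that did is named beside its gene. On copy numbers 7 of the 16 falls from CV and 7 of the 11 from ENR turned positive. A further 6 kept their sign against CV but did not pass, namely Pdhx (-0.43), Idh3a (-0.54), Suclg2 (-0.09), Glul (-0.05), Got2 (-0.19) and Gpt2 (-0.32). Against ENR these were 4, Idh2 (-0.56), Suclg2 (-0.14), Acly (-0.09) and Glul (-0.51).

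Of the pyruvate dehydrogenase complex, 4 of 5 subunits were lower in EN than in CV and in ENR, but on copy numbers 0 of the 4 were called lower, and all but Pdhx against CV turned positive. Pdha1 and Pdhb, the subunits of its decarboxylase, Dlat, the acetyltransferase core, and Pdhx, the protein that docks the dehydrogenase to that core, all fell from CV to EN and from ENR to EN. Dld, the dihydrolipoamide dehydrogenase that the complex shares with the oxoglutarate and branched-chain complexes, rose. Pdha1 (NM_008810.3), Pdhb (NM_024221.3) and Dlat (NM_145614.4) had log2 fold changes from CV to EN of -0.27, -0.64 and -0.69, and from ENR to EN of -0.61, -0.40 and -0.28, and all 6 values turned positive on copy numbers, the largest to 0.72.

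Pdhx (NM_175094.5) was at 65.2, 70.9, 66.7 and 72.2 CPM in the CV libraries, 56.1, 52.4, 51.3 and 51.5 in ENR and 27.9, 34.3, 29.8 and 31.1 in EN. The 3 cultures did not overlap, with CV highest and EN lowest. Pdhx fell by 1.17 (log2) from CV to EN (SE 0.065, edgeR adjusted p = 1.26e-10), a 2.25-fold lower level, and its ENR to EN difference was -0.79 (adjusted p = 2.46e-08; 0.20 on copy numbers). Dld (NM_007861.5) had the smallest change of the complex, with 141, 153, 164 and 164 CPM in CV, 133, 151, 156 and 154 in ENR and 176, 185, 163 and 193 in EN. Only the EN library at 163 CPM fell within the CV range. Its rise of 0.21 from CV (SE 0.065, edgeR adjusted p = 0.00848) became -0.22 on spike-ins and -0.11 on TPM, and its rise of 0.27 from ENR became -0.25 on spike-ins. The call against CV was lost when any of 7 single libraries was left out, with 0.16 (adjusted p = 0.0318) without CV library 1 as the smallest value.

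The kinases that switch this complex off did not move as a group. Pdk4, known for its induction in fasting, was a CV transcript. Its levels (NM_013743.2) were 47.0, 42.7, 41.6 and 39.8 CPM in CV, 1.02, 1.15, 2.28 and 1.51 in ENR and 2.68, 2.36, 3.39 and 3.02 in EN. Every CV library was above every other library, and EN and ENR lay close together without overlap. Pdk4 fell by 3.89 (log2) from CV to EN (SE 0.15, edgeR adjusted p = 1.06e-12), 14.8-fold, and was 28.6-fold higher in CV than in ENR (log2 4.84, SE 0.16, adjusted p = 1.51e-12), the largest difference of any member in any comparison. It was 1.93-fold higher in EN than in ENR (adjusted p = 0.0013).

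Pdk2 (NM_133667.2) went the other way, with 3.50, 2.67, 2.52 and 2.29 CPM in CV, 5.12, 3.76, 3.64 and 4.03 in ENR and 11.8, 10.3, 11.2 and 8.06 in EN. The EN libraries lay above all others, at levels that were still among the lowest of the set. Pdk2 rose 3.76-fold from CV (log2 1.91, SE 0.19, edgeR adjusted p = 1.74e-07) and 2.48-fold from ENR (adjusted p = 8.94e-06; 0.82 and adjusted p = 0.0123 on spike-ins). Pdk3 (NM_145630.2) had 43.3, 53.9, 40.8 and 46.4 CPM in CV, 26.6, 26.8, 29.0 and 30.0 in ENR and 43.0, 50.7, 46.6 and 42.8 in EN. EN and CV overlapped throughout (log2 -0.02, SE 0.085, edgeR adjusted p = 0.854), and both were above ENR, EN by 1.62-fold and CV by 1.64-fold. Pdk1 (NM_172665.5), the most abundant kinase transcript by CPM and by TPM in all 3 cultures, fell by 0.64 from CV and by 0.32 from ENR, with 0.16 and 0.63 on copy numbers.

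Between citrate and oxoglutarate, the cytosolic enzymes rose in EN while mitochondrial Idh2 and Idh3a fell. Idh1, the cytosolic NADP-dependent isocitrate dehydrogenase (NM_001111320.1), was at 490, 499, 519 and 442 CPM in CV, 746, 708, 720 and 798 in ENR and 3170, 3340, 3470 and 3240 in EN. The lowest EN library lay far above the highest library of the other cultures. Idh1 rose 6.78-fold from CV (log2 2.76, SE 0.053, edgeR adjusted p = 5.41e-16) and 4.44-fold from ENR (log2 2.15, SE 0.052, adjusted p = 8.34e-15). Per length it was the most abundant member in EN, at 1970 ± 58.2 TPM (SD, n = 4), and in ENR, at 497 ± 26.7 TPM, and ranked 7 in CV at 364 ± 21.3 TPM.

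Its mitochondrial NADP-dependent counterpart Idh2 (NM_173011.2) showed the opposite order, with 382, 365, 397 and 389 CPM in CV, 254, 260, 261 and 251 in ENR and 97.0, 104, 94.2 and 102 in EN. No library of one culture reached into the range of another. Idh2 fell by 1.95 (log2) from CV to EN (SE 0.040, edgeR adjusted p = 1.07e-15), 3.86-fold, and 2.58-fold from ENR (adjusted p = 8.6e-14). Aco1, the cytosolic aconitase that also serves as an iron-regulated RNA-binding protein (NM_007386.2), was at 156, 147, 151 and 163 CPM in CV, 225, 225, 222 and 224 in ENR and 466, 466, 474 and 466 in EN. The libraries within ENR and within EN were almost level, and EN stood apart. Aco1 rose 3.03-fold from CV (log2 1.6, SE 0.035, edgeR adjusted p = 1.69e-15) and 2.09-fold from ENR (adjusted p = 1.86e-13).

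The 3 subunits of the mitochondrial NAD-dependent isocitrate dehydrogenase went 3 ways. Idh3a, the catalytic subunit (NM_029573.2), had 177, 203, 206 and 223 CPM in CV, 105, 114, 114 and 125 in ENR and 79.1, 83.9, 78.8 and 91.4 in EN. CV lay above ENR and ENR above EN without overlap. Idh3a fell by 1.28 from CV to EN (SE 0.074, edgeR adjusted p = 2.06e-10), 2.43-fold, and by 0.46 from ENR, which became 0.51 on copy numbers. Idh3b (NM_130884.4) was at 254, 236, 249 and 240 CPM in CV, 265, 245, 245 and 236 in ENR and 257, 234, 216 and 231 in EN. These ranges overlapped in all comparisons, and no difference passed (EN minus CV -0.06, SE 0.052, edgeR adjusted p = 0.306). Idh3g (XM_006527843.3) rose 1.48-fold from CV to EN and did not pass between EN and ENR (0.05, SE 0.050).

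From oxoglutarate to succinate, the transcripts of the oxoglutarate dehydrogenase complex were higher in EN. Ogdh, its decarboxylase, had 2 transcripts whose reads were divided by estimation. The main one, NM_010956.4, was at 167, 188, 175 and 205 CPM in CV, 203, 186, 201 and 189 in ENR and 514, 624, 583 and 605 in EN. CV and ENR overlapped, and EN lay above both. It rose 3.16-fold from CV (log2 1.66, SE 0.067, edgeR adjusted p = 2.69e-12) and 2.98-fold from ENR (adjusted p = 5.95e-12).

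The other Ogdh transcript, NM_001252282.1, swung between libraries of 1 culture: 8.09, 0, 13.4 and 0 CPM in CV, 0, 0, 0 and 31.0 in ENR and 110, 1.07, 77.6 and 73.7 in EN. EN overlapped both other cultures through its library at 1.07 CPM. Its fitted log2 change from CV, 3.66 (SE 1.1, edgeR adjusted p = 0.00753), is uncertain: DESeq2 gave an adjusted p of 0.22, and the call was lost without any of 6 single libraries (3.22 to 3.94). It took between 0.164% and 17.6% of the Ogdh counts in EN. With both transcripts summed, a setting added after seeing the data, Ogdh changed by 1.78 from CV and by 1.67 from ENR, and by -0.10 between CV and ENR (adjusted p = 0.0723). Dlst, the succinyltransferase of the same complex (XM_006516392.3), had 207, 215, 224 and 243 CPM in CV, 185, 174, 178 and 195 in ENR and 361, 351, 399 and 400 in EN. All EN libraries were highest and ENR lowest. Dlst rose 2.06-fold from ENR (log2 1.04, SE 0.058, edgeR adjusted p = 1.53e-10) and 1.70-fold from CV (adjusted p = 4.87e-09).

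Succinyl-CoA ligase pairs a common alpha subunit, Suclg1, with a beta subunit that forms ATP, Sucla2, or GTP, Suclg2. The beta subunits moved in opposite directions. Sucla2 (NM_011506.3) was at 179, 183, 193 and 172 CPM in CV, 185, 188, 192 and 194 in ENR and 350, 387, 369 and 387 in EN. CV and ENR overlapped below EN. Sucla2 rose 2.06-fold from CV (log2 1.04, SE 0.043, edgeR adjusted p = 3.43e-12) and 1.97-fold from ENR (adjusted p = 8.83e-12).

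Suclg2 (NM_011507.3) had 330, 331, 362 and 332 CPM in CV, 367, 376, 381 and 373 in ENR and 183, 195, 179 and 185 in EN. EN was below both other cultures. Suclg2 fell by 1.01 on the log2 scale from ENR (SE 0.040, edgeR adjusted p = 2.19e-12) and by 0.87 from CV (adjusted p = 1.16e-11), and its small CV to ENR difference of -0.14 became 0.01 on TPM. Its other transcript, NM_001326558.1, was between 0 and 4.56 CPM and passed no test, and the summed values were -1.02 and -0.87. Suclg1 (NM_019879.3) was at 298, 343, 366 and 380 CPM in CV, 216, 225, 242 and 251 in ENR and 311, 360, 311 and 354 in EN. CV and EN overlapped (log2 -0.06, SE 0.074, edgeR adjusted p = 0.493), and both lay above ENR. Suclg1 was 1.43-fold higher in EN than in ENR (log2 0.52, adjusted p = 1.46e-05), which became -0.01 on spike-ins.

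From succinate to oxaloacetate, 6 of 7 transcripts rose from CV to EN and from ENR to EN, and fumarase fell. All 7 had EN values outside the range of CV and of ENR. The 4 subunits of succinate dehydrogenase, which passes electrons from succinate to the respiratory chain, rose together: the flavoprotein Sdha (NM_023281.1), the iron-sulfur subunit Sdhb (XM_006539128.1) and the membrane anchors Sdhc (XM_006496955.2) and Sdhd (NM_025848.3) changed by 0.63, 0.91, 0.35 and 0.66 from CV and by 0.37, 0.82, 0.59 and 0.61 from ENR, with Sdhc at -0.07 against CV and Sdha at -0.14 against ENR on spike-ins. Against CV, Sdhc changed least, from 265, 248, 262 and 261 CPM in CV and 217, 228, 217 and 216 CPM in ENR to 327, 335, 352 and 307 CPM in EN. Every EN library of Sdhc was above CV, and CV above ENR. The Sdhc rise was 1.27-fold from CV (SE 0.042 on the log2 scale, edgeR adjusted p = 1.37e-06; 0.02 and not passed on TPM, -0.07 on spike-ins) and 1.51-fold from ENR (adjusted p = 3.67e-09). Fh1, fumarase (NM_010209.2), fell by 0.67 from CV and by 0.42 from ENR, with 0.12 and 0.49 on copy numbers.

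Both malate dehydrogenases were higher in EN. Mdh2, the mitochondrial enzyme of the cycle (NM_008617.2), was at 197, 193, 209 and 202 CPM in CV, 144, 137, 147 and 155 in ENR and 485, 483, 479 and 464 in EN. EN exceeded CV, and CV exceeded ENR, in every library. Mdh2 rose 2.38-fold from CV (log2 1.25, SE 0.040, edgeR adjusted p = 1.4e-13) and 3.28-fold from ENR (log2 1.71, SE 0.041, adjusted p = 7.36e-15). Mdh1, its cytosolic partner in the malate-aspartate shuttle (NM_008618.3), had 506, 505, 512 and 506 CPM in CV, 382, 354, 384 and 375 in ENR and 911, 956, 1010 and 965 in EN. The order of the cultures was that of Mdh2, without overlap. Mdh1 rose 2.57-fold from ENR (log2 1.36, SE 0.037, edgeR adjusted p = 3.11e-14) and 1.89-fold from CV (adjusted p = 2.12e-12).

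Of the malic enzymes, which convert malate to pyruvate, Me2 was higher in EN than in both other cultures, and Me1 was higher than in ENR only. Me2, the mitochondrial NAD-dependent enzyme (NM_145494.2), was at 132, 142, 147 and 134 CPM in CV, 294, 298, 299 and 292 in ENR and 509, 519, 505 and 492 in EN. CV was lowest and EN highest without overlap. Me2 rose 3.65-fold from CV to EN (log2 1.87, SE 0.038, edgeR adjusted p = 8.71e-16) and 1.71-fold from ENR (adjusted p = 1.74e-11), and it was the only member at least 2-fold lower in CV than in ENR (log2 -1.09, SE 0.038, adjusted p = 3.1e-12).

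Me1, the cytosolic enzyme that yields NADPH, also had 2 transcripts. XM_011242666.2 was at 76.1, 68.3, 69.6 and 64.1 CPM in CV, 20.5, 20.3, 22.8 and 19.1 in ENR and 45.4, 45.6, 39.2 and 43.0 in EN. CV was highest and ENR lowest. It was 3.37-fold higher in CV than in ENR (log2 1.75, SE 0.074, edgeR adjusted p = 2.4e-11), 2.10-fold higher in EN than in ENR (adjusted p = 4.12e-09) and lower in EN than in CV by 0.68, which became 0.07 on copy numbers. NM_008615.2 was low and uneven, with 14.2, 14.0, 16.2 and 6.27 CPM in CV, 2.18, 0, 2.58 and 2.14 in ENR and 14.1, 3.85, 15.5 and 2.45 in EN. Its EN values overlapped both other cultures. The fitted changes were -0.48 from CV (SE 0.50, adjusted p = 0.389) and 2.34 from ENR (SE 0.63, edgeR adjusted p = 0.00328), the latter lost without EN library 1 (2.02) or 3 (1.97), and the summed Me1 changed by -0.64 and 1.23. Acly, which splits citrate in the cytosol to make acetyl-CoA for lipid synthesis (NM_001199296.1), fell by 0.76 from CV, 0.02 on copy numbers, and by 0.99 from ENR.

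Glutamate dehydrogenase rose and glutamine synthetase fell. Glud1, which releases oxoglutarate and ammonia from glutamate (NM_008133.4), was at 251, 249, 260 and 263 CPM in CV, 239, 252, 242 and 240 in ENR and 436, 396, 374 and 448 in EN. CV and ENR overlapped below EN. Glud1 rose 1.62-fold from CV (log2 0.70, SE 0.051, edgeR adjusted p = 3.62e-09; 0.29 and adjusted p = 0.149 on spike-ins) and 1.70-fold from ENR (adjusted p = 1.36e-09). Glul, which makes glutamine from glutamate and ammonia (NM_008131.4), had 117, 119, 114 and 121 CPM in CV, 169, 169, 183 and 181 in ENR and 67.3, 67.2, 67.2 and 65.8 in EN. The cultures did not overlap, and the EN libraries were almost level. Glul fell by 1.39 on the log2 scale from ENR (SE 0.041, edgeR adjusted p = 7.47e-14), 2.63-fold, and 1.76-fold from CV (adjusted p = 4.91e-11).

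Among the transaminases, alanine aminotransferase Gpt rose and the others were lower in EN than in CV. Gpt, the cytosolic enzyme that makes alanine from pyruvate and glutamate (NM_182805.3), was at 41.6, 37.2, 35.7 and 37.7 CPM in CV, 35.1, 34.9, 38.7 and 40.0 in ENR and 276, 274, 269 and 247 in EN. CV and ENR could not be separated (log2 0.03, SE 0.068, edgeR adjusted p = 0.692), and EN was far above both. Gpt rose 7.0-fold from CV (log2 2.81, SE 0.058, edgeR adjusted p = 1.07e-15) and 7.15-fold from ENR (log2 2.84, SE 0.059, adjusted p = 1.77e-15). Gpt2, its mitochondrial counterpart (NM_173866.3), had 25.3, 27.9, 27.4 and 27.7 CPM in CV, 16.1, 12.9, 19.0 and 14.5 in ENR and 13.3, 14.1, 12.7 and 11.7 in EN. EN lay below CV and overlapped ENR. Gpt2 fell by 1.07 from CV to EN (SE 0.11, edgeR adjusted p = 2.01e-07), and its -0.28 from ENR did not pass (adjusted p = 0.036).

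The aspartate aminotransferases were high in CV alone. Got1, the cytosolic enzyme (NM_010324.2), was at 58.2, 64.2, 65.2 and 60.5 CPM in CV, 13.2, 13.1, 13.5 and 12.8 in ENR and 14.1, 16.5, 18.0 and 12.7 in EN. EN and ENR overlapped (log2 0.20, SE 0.10, edgeR adjusted p = 0.0829), and CV lay above both. Got1 fell by 2.03 from CV to EN (SE 0.088, edgeR adjusted p = 6.16e-12) and was 4.71-fold higher in CV than in ENR (adjusted p = 1.11e-11). Got2, the mitochondrial enzyme (NM_010325.2), had 230, 252, 252 and 262 CPM in CV, 126, 132, 128 and 134 in ENR and 131, 123, 130 and 127 in EN. EN and ENR again overlapped (log2 -0.02, SE 0.045, adjusted p = 0.669). Got2 fell by 0.96 from CV to EN (SE 0.043, edgeR adjusted p = 1.06e-11) and was 1.91-fold higher in CV than in ENR (adjusted p = 6.21e-11).

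**Figure D2:**
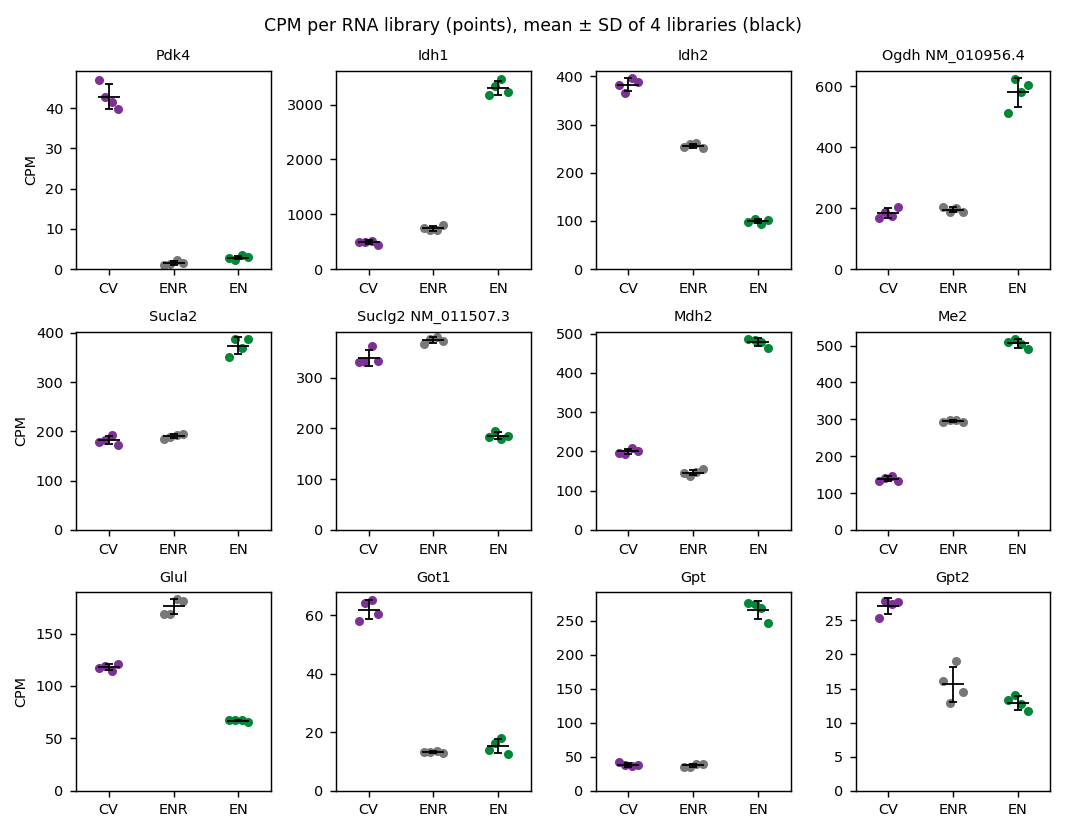
Each panel shows the CPM of 1 transcript on a linear axis from 0, with 1 point per RNA library in CV (purple), ENR (grey) and EN (green) and the mean ± SD of 4 libraries in black. EN stands above both other cultures for Idh1, the main Ogdh transcript, Sucla2, Mdh2, Me2 and Gpt and below them for Idh2, Suclg2 and Glul, while CV stands apart for Pdk4, Got1 and Gpt2.

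Per length, the balance within enzyme pairs differed between cultures. Idh1 held 48.0% ± 2.0 (SD, n = 4) of the summed TPM of Idh1 and Idh2 in CV, 67.8% ± 1.5 in ENR and 96.0% ± 0.25 in EN. Sucla2 held 47.6% ± 0.64 of Sucla2 and Suclg2 in CV, 46.2% ± 0.52 in ENR and 77.3% ± 0.72 in EN, so that the ATP-forming beta subunit was the more abundant in EN only. The share of Gpt among Gpt and Gpt2 went from 74.6% ± 1.9 in CV and 83.4% ± 2.1 in ENR to 97.7% ± 0.10 in EN. Me1 held 31.5% ± 2.3 of the malic enzyme TPM in CV, but 5.58% ± 0.49 in ENR and 7.42% ± 0.72 in EN. Got1 held 22.3% ± 0.88 of the aspartate aminotransferase TPM in CV, against 10.4% ± 0.40 in ENR and 12.1% ± 1.7 in EN. The share of Mdh1 among both malate dehydrogenases went from 61.4% ± 0.70 in CV and 61.7% ± 0.96 in ENR to 55.8% ± 1.2 in EN. These shares restate the transcript levels and were not tested.

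**Figure D3:**
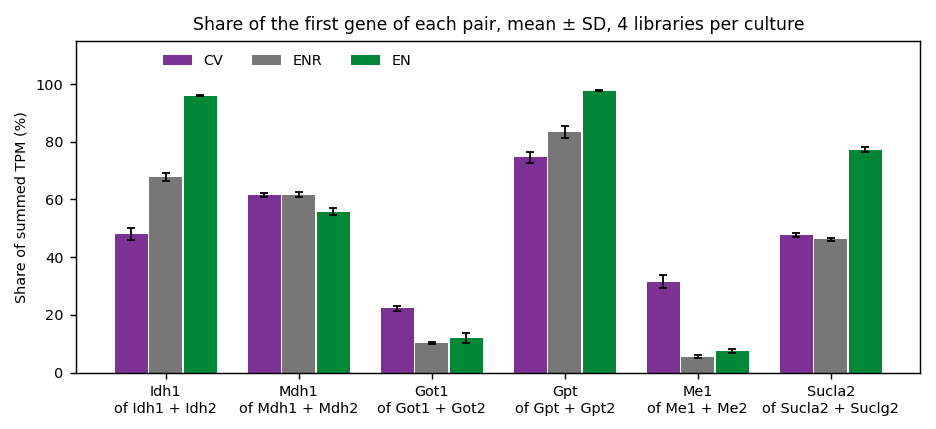
The y axis gives the share of the first gene in the summed TPM of each pair, in percent, as mean ± SD of 4 libraries per culture (CV purple, ENR grey, EN green). The EN bars of Idh1, Gpt and Sucla2 are the tallest of their pairs, at 96.0%, 97.7% and 77.3%, and the CV bars of Got1 and Me1 are the tallest of theirs.

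The order of TPM levels changed with the culture. In CV the leading members were Sdhb (488 ± 20.5 TPM), Mdh1 (450 ± 3.79 TPM) and Suclg1 (446 ± 48.8 TPM), which did not differ beyond their spread except for Sdhb above Mdh1. In EN, Idh1 at 1970 TPM was followed by Sdhb at 735 ± 39.2 TPM and Mdh1 at 682 ± 22.8 TPM, with ranges of 704 to 787 TPM and 660 to 711 TPM that overlapped. In EN the lowest levels belonged to Pdk2 (6.22 ± 1.02 TPM), Gpt2 (4.78 ± 0.389 TPM) and Pdk4 (1.09 ± 0.163 TPM), the last of which was at 20.6 ± 1.46 TPM in CV.

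Genes of the neighbouring reactions were more often lower than higher in EN, except on copy numbers, where the balance turned. Of 42 other genes of these pathways (transporters, assembly factors, phosphatases and enzymes of glutamine, proline and branched-chain amino acids), 40 were found as 44 transcripts. Between EN and CV, 13 of these were higher, 24 lower and 7 not called, with a median of -0.63, and at least 2-fold 4 were higher and 17 lower, where all transcripts gave 35.2% higher, 41.2% lower and a median of -0.08. Against ENR, 14 were higher and 20 lower (median -0.22), beside 35.5%, 37.2% and -0.01. In CV against ENR, 24 were higher and 10 lower (median 0.26), beside 30.2%, 29.8% and -0.01. The splits of EN against CV and against ENR were 4 to 25 and 3 to 26 on spike-ins and 8 to 28 and 11 to 25 on TPM, but 19 to 14 (median 0.12) and 23 to 7 (median 0.77) on copies.

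Pck1, the cytosolic enzyme that turns oxaloacetate into phosphoenolpyruvate, was near 3 counts in CV (0.400 to 0.795 CPM) and rose from a mean of 8.12 CPM in ENR to 89.4 CPM in EN, 10.8-fold (edgeR adjusted p = 6.92e-13), whereas its mitochondrial form Pck2 fell by 1.96 (log2) from CV to EN. The values that follow are of the same comparison. Oat, which makes glutamate semialdehyde from ornithine, rose by 1.28, and so did the Aldh18a1 transcript NM_153554.2, of proline synthesis, by 1.13. The other Aldh18a1 transcript, NM_019698.2, leaned the other way and did not pass (-0.44, edgeR adjusted p = 0.0365). Genes of glutamine and proline handling were among the falls. The glutamine carrier Slc1a5 fell by 2.97, the liver-type glutaminase Gls2 fell by 3.91, asparagine synthetase Asns by 2.32, the proline synthesis reductase Pycr1 by 1.98, the proline breakdown enzyme Aldh4a1 by 4.55 and carbamoyl phosphate synthetase Cps1 by 2.17.

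The pyruvate dehydrogenase phosphatase Pdp1 fell by 1.80, the Ogdh paralogue Ogdhl by 1.87, the succinate dehydrogenase assembly factor Sdhaf1 by 1.10, the lipoate transferases Lipt1 by 1.83 and Lipt2 by 2.48, and the branched-chain complex subunits Bckdhb by 4.51 and Dbt by 1.06. Ldhb, a lactate dehydrogenase subunit, was at 4.46 to 5.7 CPM in CV and at or under 3 counts in every ENR and EN library.

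Chromatin at the start sites was read from regions of the union of peaks, as deposited scores. The 36 genes had 41 regions within 500 bp of an annotated start site, and 11 of the 41 also lay that near to the start of another gene, so their values cannot be given to 1 gene. Their positions are given as deposited. Such pairs included Pdhx with Apip, Mdh1 with Wdpcp, Mdh2 with Styxl1 and Sdhd with Timm8b. The summed scores of the libraries themselves differed between cultures, and their part in the differences below was not tested: for ATAC, 1752385 to 1840402 in CV, 1897795 to 1962331 in ENR and 1993594 to 2109261 in EN, and for H3K27ac, 1345873 to 1406651 in CV, 1372095 to 1506573 in ENR and 1622103 to 1760511 in EN.

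ATAC-seq, which measures how open chromatin is, gave 17 of 41 regions changed between EN and CV, 15 higher and 2 lower in EN (limma on log2(score + 1), adjusted p under 0.05 over all regions). This share lay close to the background of 35.2% of all regions and 34.6% of the regions near any start site, of which 19.1% were higher and 15.5% lower. After quantile normalization 12 were called, 6 in each direction. Against ENR, 10 regions were higher and 0 lower, beside 24.0% of all regions and 19.5% of those near a start site, 9.82% higher and 9.66% lower, and after quantile normalization 4 were higher and 1 lower. Without ENR library 4, 6 were called. The median ATAC difference of the members was 0.12 from CV, against 0.007 for all start-site regions, and 0.178 from ENR, against -0.023. After quantile normalization these were -0.082 against -0.146 and 0.037 against -0.104, so the members' median turned its sign from CV.

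The largest ATAC difference stood at Gpt. Its region at chr15:76526361-76526783 (mm9), 380 bp upstream of the start site, had scores of 12, 15, 11 and 11 in CV, 14, 21, 7 and 17 in ENR and 55, 63, 60 and 60 in EN. Every EN library was above every other. The difference was 2.20 from CV (log2, SE 0.24, limma adjusted p = 1.68e-06) and 2.03 from ENR (adjusted p = 1.13e-05). Another, shorter region covered the start site itself, with 11, 12, 9 and 12 in CV and 25, 23, 12 and 19 in EN, overlapping at 12 (log2 0.75, SE 0.24, limma adjusted p = 0.0218), a call lost after quantile normalization (0.60) and without CV library 3 (0.66) or EN libraries 1 (0.63) or 2 (0.66). The bases of that region before the start site, outside any annotated transcript, are printed because Gpt differed in mRNA, ATAC and H3K27ac scores there. They were read from the mm9 genome, plus strand, and hold no match to the letters searched below, so none is in capitals.
Gpt chr15:76526996-76527162: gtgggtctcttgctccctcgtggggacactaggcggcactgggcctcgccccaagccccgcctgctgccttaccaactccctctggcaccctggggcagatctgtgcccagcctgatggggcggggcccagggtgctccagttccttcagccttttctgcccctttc

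Elsewhere, openness and mRNA did not always go together. Pdk4 was among the 2 regions lower in EN than in CV, with 95, 99, 103 and 83 in CV, 34, 42, 39 and 31 in ENR and 57, 69, 71 and 69 in EN, and so followed its mRNA in order (EN minus CV -0.51, SE 0.13, limma adjusted p = 0.00534; EN minus ENR 0.85, adjusted p = 0.000138). The other was Got2 (-0.56, SE 0.12, adjusted p = 0.00166). Me1 (0.66), Mdh1 (0.50), Me2 (0.35), the second region of Sucla2 (0.54) and the second region of Idh1 (0.36), which also lay near Pikfyve, were higher in EN than in CV, and Aco1 was higher than in ENR (0.23; -0.01 after quantile normalization). Quantile normalization also left Mdh1 (0.15), Me2 (0.09) and Idh1 (0.16) short of the threshold, and Idh1 lost its call without CV library 3 (0.28) or 4 (0.35) or EN library 2 (0.34). Several genes whose transcripts fell were more open in EN than in CV: Pdhx differed by 0.76 (limma adjusted p = 5.76e-06), Pdk1 by 0.76, Pdhb by 0.58, Pdha1 by 0.52 and Fh1 by 0.52, as did Dld, whose transcript rose, by 0.82. After quantile normalization Pdhx (0.46), Pdk1 (0.53) and Dld (0.67) still passed, and Pdhb (0.19), Pdha1 (0.27) and Fh1 (0.13) did not. Idh3b (0.58) and Sdha (0.33) were the others higher than in CV, neither of which passed after quantile normalization (0.43 and 0.18).

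H3K27ac, a mark of active promoters and enhancers, differed between EN and CV at 16 of 41 regions, 15 higher and 1 lower in EN. Of all regions 7.03% were called, and of those near any start site 20.6%, 16.9% higher and 3.73% lower, and after quantile normalization 8 were higher and 2 lower. Fitted without the trend of the spread on the mean, only 2 were called, and leaving out EN library 3 left 9, and EN libraries 2 or 4 left 10 each. Against ENR, 3 regions were higher and 0 lower (1.57% of all regions, 3.92% near start sites, 2.53% higher and 1.39% lower), while 0 were called without the trend, 6 without CV library 3, and 1 without CV library 5 or without ENR library 2 or 4 or EN library 2, 3 or 4.

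Sdhb had the largest rise, with scores of 42, 57 and 68 in CV, 163, 135 and 95 in ENR and 369, 327 and 366 in EN at chr4:140516984-140518876. EN lay above both other cultures (EN minus CV log2 2.67, SE 0.23, limma adjusted p = 4.68e-09; EN minus ENR 1.46, adjusted p = 0.000359). The first Idh1 region, chr1:65224102-65226208, was at 82, 110 and 139 in CV, 203, 127 and 177 in ENR and 306, 263 and 360 in EN. It too stood highest in EN (EN minus CV 1.5, SE 0.21, adjusted p = 1.1e-05; EN minus ENR 0.88, adjusted p = 0.0211), with no ATAC difference from CV passing there (-0.01). Mdh2 was the third region higher than in ENR (1.07, adjusted p = 0.0154). Both Gpt regions (1.89 and 2.11), Pdk2 (1.85), both Sucla2 regions (1.41 and 1.69), Aco1 (1.38), Ogdh (1.22), Sdha (1.13), Sdhc (1.00), Suclg1 (0.98), Mdh2 (0.89), Dlat (0.92) and Got2 (1.59) were higher in EN than in CV. Of these, the calls at both Gpt regions and at Mdh2 were lost without any of 4 or 5 single libraries (1.54 to 2.20 at Gpt and 0.71 to 1.00 at Mdh2), the second Sucla2 region was at 0.91 and lost its call without CV library 3, and Dlat, Sdha and Sdhc lost theirs without any of 5, 2 and 3 libraries. After quantile normalization Dlat (0.31), Mdh2 (0.25), Ogdh (0.53), Sdha (0.74), Sdhc (0.49), Suclg1 (0.40) and the second Sucla2 region (1.33) did not pass. The only lower region was Pdk4, with 76, 41 and 45 in CV, 15, 11 and 13 in ENR and 10, 10 and 12 in EN (-2.19, SE 0.46, limma adjusted p = 0.00213).

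H3K4me3, a mark of active start sites, changed at few members. Between EN and CV, 2 of 41 regions passed, Aco1 higher (0.60) and Idh2 lower (-0.79), beside 4.9% of all regions and 10.0% of those near start sites. Against ENR, Ogdh (0.84), Sdhb (0.75) and Aco1 (0.54) were higher, beside 6.18% and 5.79%. Both counts moved with single libraries: without EN library 1, 8 and 10 regions were called, against CV 0 without CV library 2 or 4 or EN library 2 and 1 without CV library 3 or any ENR library, and against ENR 1 without any ENR library or without EN library 2 or 4. H3K27me3, a repressive mark, gave 0 calls among the 41 regions in either comparison by limma, with 1 and 4 at an unadjusted p under 0.05, where 0.528% and 0.0127% of all regions and 0.345% and 0.0575% of those near start sites were called. Its scores at the members were mostly low, with a mean of 54.0 at Pdk3 in CV as the highest. The paper extended the regions for this broad mark and the deposited scores carry that label. Their windows may therefore differ from those of the other marks.

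**Figure D4:**
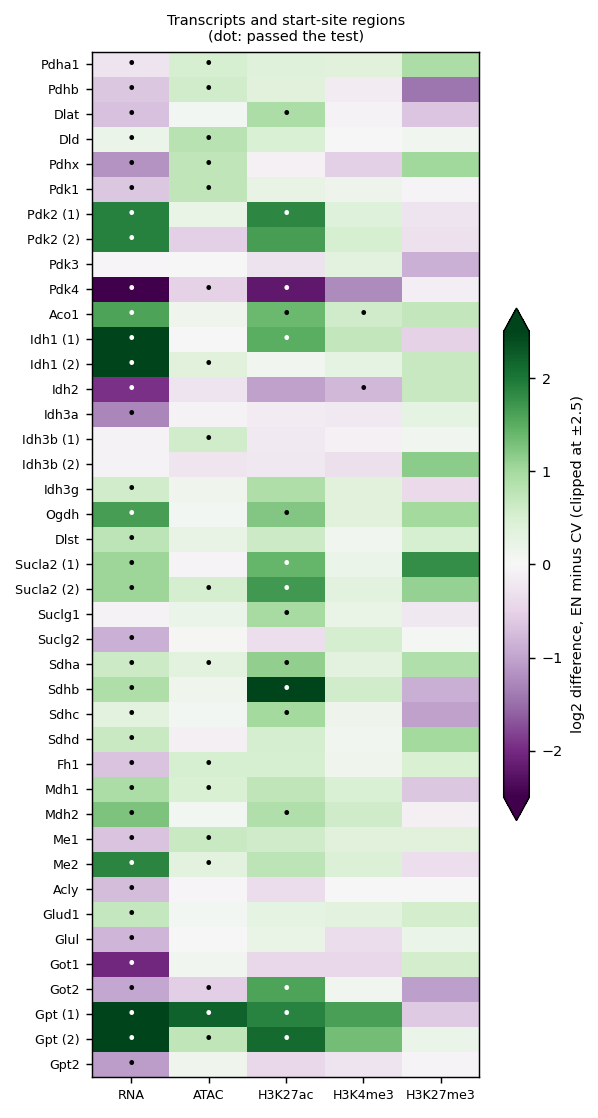
Rows are the 41 start-site regions of the 36 genes, with numbers in brackets where a gene has more than 1 region, and colours give the log2 difference EN minus CV of the mRNA and of each chromatin score, green for higher in EN and purple for lower, clipped at the ends of the scale. Dots mark differences that passed the test. For genes with 2 transcripts the more abundant one is shown. Gpt is green in RNA, ATAC and H3K27ac, Pdk4 is purple in all 3, and the Pdha1, Pdhb and Pdhx rows are purple in RNA and green in ATAC.

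Set against the mRNA, for genes with 1 transcript, 20 regions belonged to transcripts that rose from CV to EN, of which 8 were higher and 0 lower in ATAC and 11 higher and 0 lower in H3K27ac. Of 14 regions of transcripts that fell, 5 were higher and 2 lower in ATAC, and 2 higher and 1 lower in H3K27ac. Near any start site, 19.1% of regions were higher and 15.5% lower in ATAC, and 16.9% and 3.73% in H3K27ac. Without regions that also lay near another gene, 12 belonged to transcripts that rose, 5 of them higher in ATAC and 8 in H3K27ac, and 12 to transcripts that fell, with 4 higher and 2 lower in ATAC and 2 higher and 1 lower in H3K27ac. These are counts of calls, and no test was made of them.

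Hnf4g, a nuclear receptor of enterocytes, was profiled in 1 library per culture, so its reads are a description of 3 libraries. They held 84340 reads in regions for CV, 352600 for ENR and 1816497 for EN, and 3 counts equal 35.6, 8.51 and 1.65 RPM (reads-per-million). In CV, 29 of 41 member regions were at or under 3 counts, so little can be said of that culture. The median over the 41 regions was 42.4 RPM in EN and 17.0 in ENR, beside 20.4 and 14.2 for regions near any start site. In EN the most reads lay at Sdhb (247 reads, 136 RPM, exact 95% Poisson interval 120 to 154, counting error only), at the second Sucla2 region (244 reads, 134 RPM) and at Aco1 (231 reads, 127 RPM, interval 111 to 145). Pdk4, with 7 reads (3.85 RPM, interval 1.55 to 7.94), was near the bottom. The Gpt regions held 40 and 49 reads, in widths of 422 and 172 bases beside 1892 bases at Sdhb. Reads were not scaled to the width of a region, which ran from 147 to 2106 bases among the members. This order and the medians therefore do not compare read density.

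The letters CAAAGTNCA, the core of the site that the HNF4 family binds, were searched on both strands in windows of 300 bases of the mm9 genome. Of 68 start-site windows of the members, 1 held them (1.47%), as did 1.23% of all 46006 such windows. Around region centres, 2 of 41 member windows held them (4.88%), beside 1.38% of 15648 windows of regions near any start site and 5.22% of all 94340 region windows. The 3 matches are shown, with the letters in capitals and 10 bases on either side, to place the letters beside the Hnf4g reads of their regions. That of Sucla2 lies 552 bases after a start site, inside the transcript, on the minus strand, in the region with 244 reads. That of Pdk4 lies 268 bases after the start site, in a coding exon, and its region had 7 reads. That of Suclg1 lies 149 bases before the start site, outside any annotated transcript, in a region with 74 reads. A match is a description of letters, not of binding.
Sucla2 chr14:73953014-73953042: tgctggacctCAAAGTACActtgaagggc
Pdk4 chr6:5446023-5446051: cgcctctcacCAAAGTCCAgcagctgctt
Suclg1 chr6:73198217-73198245: cagaaaaaaaCAAAGTGCAggatcacggt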

How the data were processed

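The member names and the other gene lists were chosen with earlier results of these data known, though the member list itself sets no threshold on a measured value. RNA was measured in 12 libraries of mouse small intestinal organoids. The authors deposited expected counts per RefSeq transcript, estimated by kallisto (0.43.0 in the submitters' processing notes), with TPM and with mRNA copy numbers, a signal the authors scaled to spike-ins. The authors also deposited normalized, rounded scores for 94469 regions, the union of peaks called with MACS2 (2.0) on reads that BWA mapped to mm9, with Picard and DESeq2 named in the notes. For Hnf4g the authors deposited raw read counts in the same regions.

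Expected counts were rounded, without 92 spike-in transcripts. Transcripts were kept if 4 or more of the 12 libraries had a nonzero count (9288), scaled by TMM and fitted over all 3 cultures with edgeR (4.0.16, R 4.3.3), by quasi-likelihood tests with Benjamini-Hochberg adjustment at 0.01. All 39 member transcripts passed this filter. Kallisto splits reads between transcripts of 1 gene, so members with 2 transcripts are uncertain singly, and sums by gene were added after seeing the data. Scores of regions above 0 in at least 3 libraries were fitted as log2(score + 1) with limma (3.58.1, trend) at an adjusted p of 0.05. Depth behind the scores is not known, and intervals on Hnf4g reads cover counting error only. Start sites came from the mm9 annotation, within 500 bp. Every member found is named, and those changed at least 2-fold in any comparison, or changed least in their role, have full values. Alternatives were DESeq2 (1.42.0), other scalings, filters, thresholds, a replicate block and leaving out each library. Scripts were tested on simulated data. Some genes of the neighbouring reactions are counted but not reported here by name.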

Additional observations from a re-analysis of the deposited data

Results flagged for a closer look

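Among 147 groups of 4 libraries tested, 10 held a library far from the other 3 by Dixon's criterion, a wide gap relative to the group's range, and chance gives about 1 in 20 groups. In RNA these were Pdk1 in CV library 4 (524 CPM, others 570 to 574 CPM), Aco1 in EN library 3 (474 CPM, others 466 CPM), and the Ogdh transcript NM_001252282.1 in ENR library 4 (31.0 CPM, others 0). The Suclg2 transcript NM_001326558.1 stood apart in EN library 4 (1.58 CPM, others 0) and NM_011507.3 in CV library 3 (362 CPM, others 330 to 332 CPM). Sdhc stood apart in ENR library 2 (228 CPM, others 216 to 217 CPM), Mdh1 in CV library 3 (512 CPM, others 505 to 506 CPM) and Glul in EN library 4 (65.8 CPM, others 67.2 to 67.3 CPM). In ATAC-seq the Pdk4 region stood apart in EN library 1 (score 57, others 69 to 71) and the second Sucla2 region in ENR library 4 (score 63, others 78 to 81).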

How the results depend on the processing

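The cause of the moves below was not tested. On copy numbers, 23 member transcripts changed at least 2-fold between EN and ENR (13 as reported) and 8 between CV and ENR (5 as reported). Of the 28 changed between CV and ENR, 13 were called on spike-ins and 9 on copy numbers. All other totals of changed member transcripts, both directions together, stayed within 1.5 times, leaving out any library included, while the counts by direction moved more with the scaling, as given above for spike-ins, TPM and copies. ATAC regions changed between EN and ENR (10 as reported) numbered 4 without the trend, 5 after quantile normalization, 6 at an adjusted p under 0.01 and 6 to 10 with 1 library left out. H3K27ac regions between EN and CV (16) numbered 2, 10 and, with 1 library left out, 9 to 16. Between EN and ENR (3) they numbered 0, 1, 1 at 0.01, and 1 to 6. H3K4me3 regions between EN and CV (2) numbered 0, 4, 0 at 0.01, and 0 to 8, and between EN and ENR (3) 1 at 0.01 and 1 to 10. On copy numbers 7 falls of members from CV and 7 from ENR turned positive, as given beside each gene. Against CV, Dld turned to -0.22 on spike-ins and -0.11 on TPM, Sdhc to -0.07 on spike-ins, and Pdk3, Idh3b and Suclg1, which had not passed, to 0.04, 0.0036 and 0.01 with DESeq2 size factors, to 0.79, 0.8 and 0.82 on copy numbers and to 0.05, 0.0037 and 0.01 with DESeq2. Pdk3 ranged from -0.07 to 0.07 with 1 library left out, with 0.07 without CV library 2 and 0.01 without EN library 1 or 4. The Aco1 ATAC difference from ENR was -0.01 after quantile normalization. Of 893 alternatives over 41 transcript results 847 kept direction and side of the threshold, as did 656 of 846 over 51 region results.

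Replicate numbers did not pair the RNA libraries (mean correlation of same-numbered deviations 0.0132, from -0.0801 to 0.1108). With the replicate block, 34, 32 and 28 transcripts were called, as reported. Same-numbered ATAC libraries deviated together weakly (mean 0.1697, from 0.0695 to 0.4596 over 12 pairs, against -0.0556 for different numbers), which is a hint from the data: not every pair was over 0.1 and the labels name no shared batch, so the numbers were not taken as pairs. For H3K27ac the mean was -0.0027 over 5 pairs. For regions the block gave 17 and 13 calls in ATAC, 0 and 0 in H3K27ac, 0 and 3 in H3K4me3 and 0 and 0 in H3K27me3, against CV and ENR. With the block 0 of all 94215 H3K27ac regions passed by limma in either comparison, with 22 and 15 member regions at an unadjusted p under 0.05 and a member median of 0.684 against CV (0.6 without the block). A fit on all labelled histone libraries was not run, since 3 per culture and mark were analysed here.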
